A study of Mus musculus with 6 samples.

Results

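The 10 genes described here are known in mouse liver as pericentral targets of WNT signalling: Glul, Oat, Lgr5, Axin2, Rnf43, Znrf3, Tbx3, Slc1a2, Rhbg and Lect2. They were chosen by name, and each probe whose RefSeq accession belongs to one of them was taken, which gave 13 probes of the 55681 on the array and 10 of 20284 named genes. Liver RNA had been hybridised in 1 colour to 6 Agilent mouse expression arrays, 3 from wild-type (WT) mice and 3 from Gα12 knockout mice. Gα12, the product of Gna12, is a G protein α subunit. Every animal was a male of 8 weeks on chow that had been fasted overnight. The strain is given for both groups as C57BL/6 and 129/Sv, with 95% of the background from C57BL/6, and the labels name neither the deleted stretch of Gna12 nor how it was removed. The comparison asked which liver transcripts differ without Gα12.

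WNT proteins bind Frizzled and LRP receptors on the cell surface, and the β-catenin that then accumulates switches on target genes together with TCF and LEF factors. In the liver lobule this occurs mainly in the hepatocytes next to the central vein, where endothelial cells of the vein release WNT ligands and R-spondin 3. Glutamine synthetase (Glul) in the hepatocytes closest to the vein is its standard marker.

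A level is the log2 signal of a probe after subtraction of its array's 75th percentile, and differences are knockout minus WT. A level of 1 probe cannot be set against that of another probe. All differences were tested with limma over 23090 probes detected above background by the scanner software on 3 or more arrays, adjusted by Benjamini-Hochberg, and called at 0.05. Of the 10 genes, 9 passed this filter on dim probes and Axin2 did not. The spread is that between 3 animals per group, and with 3 against 3 an exact permutation test of a single gene (two-sided) cannot give a p below 0.1. The median SD was 0.65 between WT livers and 0.19 between knockout livers. The limma fit takes 1 variance per probe for both groups, so its SEs and CIs do not follow this imbalance.

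The arrays have 3 features that touch every value below. Hepatocyte markers were well above background on all 6 arrays for 7 of the 7 measured genes, as the tissue label requires. The genotype could hardly be checked, because the only Gna12 probe was well above background on WT replicate 3 alone. WT replicates 1 and 2 stood apart from the other livers: across probes, r was 0.973 between these 2 and 0.868 to 0.929 between either of them and a knockout liver, while the r of WT replicate 3 with a knockout liver was 0.966 to 0.982. The 7 Gapdh probes spanned 9.58 and 7.79 log2 units on WT replicates 1 and 2, 4.01 on the third WT array, and from 4.36 to 4.87 in the knockout. The genotypes also occupied separate rows of the slide, so row and genotype cannot be told apart. Over 12262 named genes the median difference was -0.50, and it ranged from -0.55 to -0.21 under other scalings of the arrays. Without WT replicates 1 and 2 it was -0.03.

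None of the 9 pericentral WNT targets passed the test, as none of the 23090 probes did (0% called; 4853 probes had an unadjusted p below 0.05). Tbx3 and Rnf43 were the members with the larger differences, both toward lower levels in the knockout, while Glul had nearly the same level in all 6 livers. The median difference of the 9 genes was -0.63, beside -0.50 for all named genes. With no filter on dim probes it was -0.69 over all 10 genes, beside -0.08 for all genes, and 4 of 10 were lower at an unadjusted limma p below 0.05, beside 11.6% of all genes. Dropping the filter raised the named genes from 12262 to 20197, and these added dim genes moved the background. The differences of the 9 genes stayed as they were. Axin2, among the 4, was well above background on WT replicates 1 and 2 only. Tbx3 and Rnf43 had an unadjusted p below 0.05 in limma, or 2 of 9, where 16.6% of all named genes were lower and 3.97% higher by the same measure. For Tbx3, Slc1a2 and Lect2 all 3 knockout livers lay below all 3 WT livers, or 3 of 9, against 21.1% of all named genes; in the opposite direction it was 0 of 9 against 4.35%. With the filter, these shares are near the background.

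**Figure D1:**
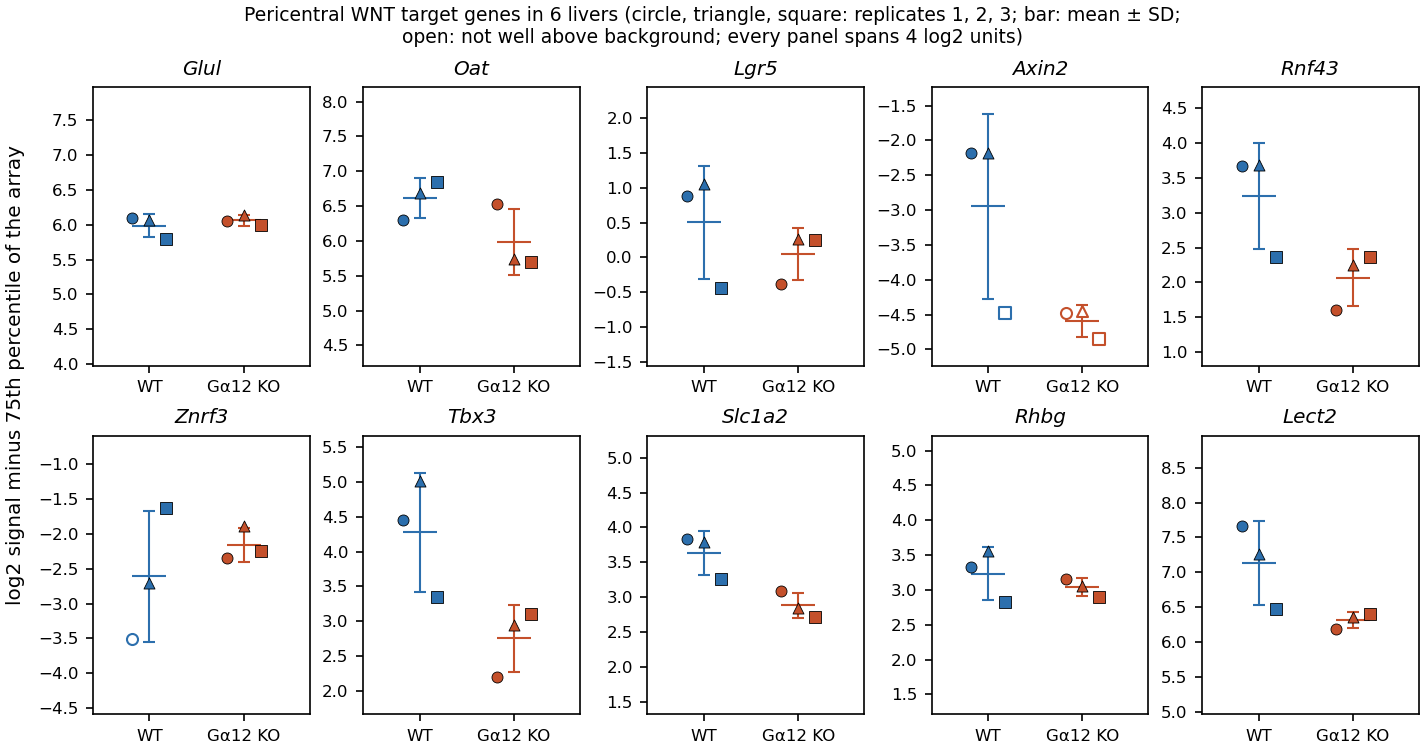
Log2 level (signal minus the array's 75th percentile) of each of the 10 genes in 3 WT (blue) and 3 Gα12 knockout (orange) livers; circles, triangles and squares are replicates 1, 2 and 3, bars are the mean ± SD (n = 3), and open symbols were not well above background. WT replicates 1 and 2 lie above the knockout livers for Tbx3, Rnf43, Slc1a2 and Lect2, with WT replicate 3 nearer to the knockout, and the Glul values lie between 5.80 and 6.15.

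Among the enzymes of nitrogen handling, Glul converts glutamate and ammonia to glutamine. Its level was 6.10, 6.06 and 5.80 in WT replicates 1 to 3 and 6.05, 6.15 and 5.99 in knockout replicates 1 to 3, so that the groups overlapped. The means were 5.99 ± 0.16 (SD, n = 3) and 6.06 ± 0.08, a difference of 0.08 (SE 0.30, 95% CI -0.61 to 0.76, limma adjusted p = 0.865). The whole range over the 6 livers was 0.35, and 0.807% of named genes had a smaller one. Relative to the median of all genes the difference was 0.57, and it stayed above that median under each of the 16 alternatives run (0.15 to 0.80). The narrow range was computed for this scaling only. Under other scalings of the arrays the knockout minus WT difference of Glul was 0.02 to 0.59. The largest came with quantile normalization (SE 0.24, limma adjusted p = 0.250). The genes with the profile most like that of Glul over the 6 arrays were Aldoa (Pearson r = 0.996), Ppp1r14b (0.986), Mrto4 (0.981), Atxn10 (0.978) and Pnpla2 (0.973), given as a description of 6 points that share arrays and scaling.

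Oat, ornithine aminotransferase, passes nitrogen from ornithine toward glutamate and is found in the same hepatocytes as Glul. It was at 6.30, 6.69 and 6.85 in WT and at 6.53, 5.73 and 5.69 in the knockout. Knockout replicates 2 and 3 were below every WT liver and knockout replicate 1 lay among them. The difference was -0.63 (SE 0.37, limma adjusted p = 0.286), and it was -0.87 against WT replicate 3 alone, the highest of the 6 livers for Oat. With quantile normalization it was -0.15. Relative to the median of all genes it ran from -0.84 to 0.26 over the 16 alternatives, so its place among all genes is not settled.

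Ammonium and glutamate carriers were measured by Rhbg and Slc1a2. Rhbg, an ammonium transporter of the Rhesus family, was at 3.32, 3.56 and 2.82 in WT and at 3.16, 3.05 and 2.91 in the knockout. The groups overlapped, and the difference was -0.20 (SE 0.33, limma adjusted p = 0.680). Leaving out WT replicate 2 gave -0.04 and leaving out WT replicate 3 gave -0.40, and its sign turned with quantile normalization, where it was 0.23. Slc1a2, the glutamate transporter also called GLT-1, had its brightest probe at 3.83, 3.80 and 3.27 in WT and at 3.08, 2.84 and 2.72 in the knockout. The lowest WT liver was thus above the highest knockout liver by little, and the means of 3.63 ± 0.32 and 2.88 ± 0.18 (SD, n = 3) differed by -0.75 (SE 0.32, 95% CI -1.50 to 0.00, limma adjusted p = 0.238). A second Slc1a2 probe, for another transcript accession, was at -1.02, -0.37 and -0.82 in WT and at -1.08, -1.41 and -1.35 in the knockout, again without overlap (difference -0.55, SE 0.33, limma adjusted p = 0.294). The third probe, for the same accession as the second, was well above background on WT replicate 3 only.

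Lect2 encodes a chemotactic protein that hepatocytes secrete into blood. Its level was 7.67, 7.27 and 6.48 in WT and 6.18, 6.35 and 6.40 in the knockout. WT replicate 3 was 0.16 above the knockout mean, whereas WT replicates 1 and 2 were 1.35 and 0.95 above it. The difference of the group means, 7.14 ± 0.61 and 6.31 ± 0.12 (SD, n = 3), was -0.82 (SE 0.38, limma adjusted p = 0.241).

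Slc1a2 and Lect2 were the members with a promoter sequence at hand whose groups did not overlap, and Glul was the member with the steadiest level, so the 250 bases before their RefSeq starts (GRCm38.p6) are shown, 5′ to 3′ on the strand of the gene. Capitals mark the core of the site that TCF and LEF factors bind, searched as CTTTGAT and as its first 6 letters, CTTTGA, on both strands. The window of Slc1a2 is chr2:102706188-102706437 (plus strand), that of Lect2 is chr13:56548539-56548788 (minus strand) and that of Glul is chr1:153899679-153899928 (plus strand).
Slc1a2: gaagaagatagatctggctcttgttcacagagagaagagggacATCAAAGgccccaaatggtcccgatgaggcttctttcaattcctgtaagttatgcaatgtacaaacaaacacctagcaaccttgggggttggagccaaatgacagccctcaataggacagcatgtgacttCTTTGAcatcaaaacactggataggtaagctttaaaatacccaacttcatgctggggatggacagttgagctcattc
Lect2: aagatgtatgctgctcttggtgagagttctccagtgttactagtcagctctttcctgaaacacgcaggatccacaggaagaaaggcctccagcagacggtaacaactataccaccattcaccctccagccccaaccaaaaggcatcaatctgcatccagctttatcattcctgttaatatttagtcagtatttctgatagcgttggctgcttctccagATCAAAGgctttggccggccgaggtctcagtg
Glul: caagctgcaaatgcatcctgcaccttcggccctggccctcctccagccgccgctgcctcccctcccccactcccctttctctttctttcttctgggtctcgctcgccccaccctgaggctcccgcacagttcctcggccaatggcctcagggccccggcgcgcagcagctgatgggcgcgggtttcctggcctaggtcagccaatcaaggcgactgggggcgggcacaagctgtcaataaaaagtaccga
Slc1a2 held 2 matches of CTTTGA, which begin 206 and 77 bases before the start, and the first of them extends to CTTTGAT, 207 bases before it. Lect2 held 1 match, of the longer form, which begins 32 bases before the start. The longer motif CTTTGAT was in 3.21% of 32851 mouse promoter windows of this length and CTTTGA in 13.8%. Each form was in 2 of 7 windows of 6 members, since the windows of Glul, Oat, Axin2 and Rnf43 held neither form. A match describes the letters only, and enhancers farther away are outside these windows.

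Receptors and ligases that set the strength of the WNT signal came next. Lgr5, a receptor for R-spondins, was at 0.88, 1.06 and -0.43 in WT and at -0.39, 0.26 and 0.26 in the knockout. WT replicates 1 and 2 were above all knockout livers and WT replicate 3 below them. The difference was -0.46 (SE 0.47, limma adjusted p = 0.500), and against WT replicate 3 alone it was 0.48. Rnf43, a membrane ubiquitin ligase that removes Frizzled receptors and is itself a WNT target, was at 3.68, 3.68 and 2.36 in WT and at 1.60, 2.25 and 2.36 in the knockout. WT replicate 3 was level with knockout replicate 3. The means of 3.24 ± 0.76 and 2.07 ± 0.41 (SD, n = 3) differed by -1.17 (SE 0.46, 95% CI -2.24 to -0.10, unadjusted p = 0.0359, limma adjusted p = 0.235), and the difference was -0.29 against WT replicate 3 alone.

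Its relative Znrf3 had a dim probe, at -3.50, -2.70 and -1.62 in WT and at -2.34, -1.89 and -2.25 in the knockout. On WT replicate 1 the probe was not well above background, and WT replicate 3 was the highest of all 6 livers. The difference was 0.45 (SE 0.50, limma adjusted p = 0.531), and it was 0.0017 without WT replicate 1 and -0.54 against WT replicate 3 alone, so its sign is not settled. The difference between Znrf3 and Rnf43 was not tested.

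Axin2 is a scaffold of the complex that degrades β-catenin and a target in most tissues where the pathway is active. Of its 2 probes, 1 was well above background on WT replicates 1 and 2 only. It read -2.19, -2.18 and -4.48 in WT and -4.48, -4.45 and -4.85 in the knockout, where no array was well above background. Since the WT mean was below the lowest signal called well above background on the knockout arrays, no fold is given. The other probe was not well above background on any of the 6 arrays.

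Tbx3, a T-box transcription factor of pericentral hepatocytes, was at 4.46, 5.02 and 3.35 in WT and at 2.21, 2.95 and 3.10 in the knockout. The groups did not overlap, with WT replicate 3 next to knockout replicate 3. The means of 4.27 ± 0.85 and 2.75 ± 0.48 (SD, n = 3) differed by -1.52 (SE 0.50, 95% CI -2.68 to -0.36, unadjusted p = 0.0166, limma adjusted p = 0.235; exact permutation p = 0.1). This placed Tbx3 at percentile 4.09 of the differences of all named genes. It kept a lower level in the knockout under the 16 alternatives, from -1.99 to -0.59, and lay below the median of all genes in each (-1.44 to -0.56).

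**Figure D2:**
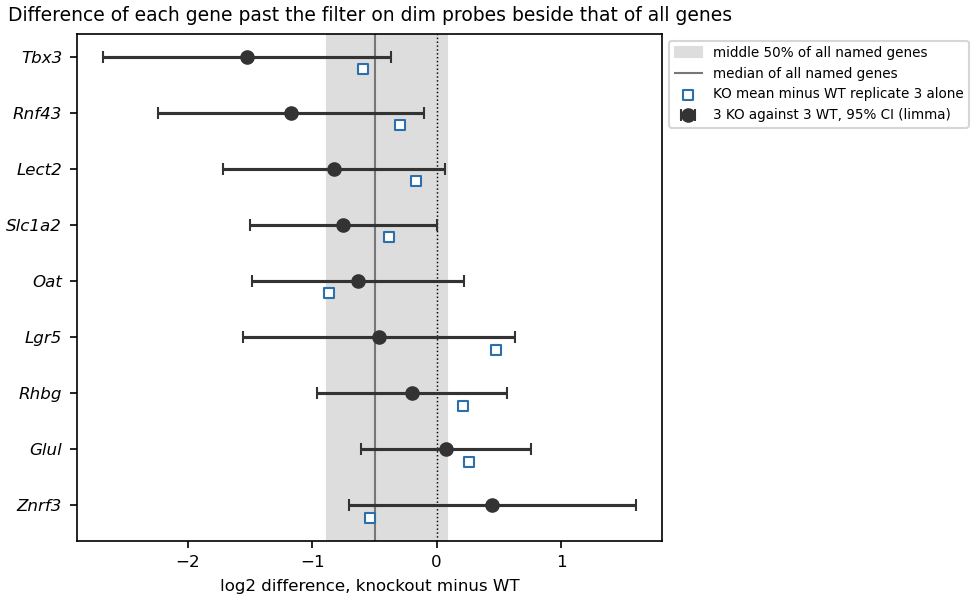
Log2 difference, knockout minus WT, of the 9 genes that passed the filter on dim probes (points with 95% CI from limma, 3 livers per group), beside the knockout mean minus WT replicate 3 alone (open squares) and the middle 50% of all named genes (grey, -0.88 to 0.08, with the median at -0.50). The interval of Tbx3 lies below 0 and reaches into the grey band, and the open squares lie nearer to 0 for Tbx3, Rnf43, Lect2 and Slc1a2.

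Most of the separation rested on WT replicates 1 and 2. Of the 9 genes, 6 and 7 were above all knockout livers on WT replicates 1 and 2, where 66.6% and 66.4% of all named genes were, and 5 were on WT replicate 3, against 32.5% of all named genes. On WT replicate 3, 3 of the 9 lay below all knockout livers, against 26.8% of all named genes. The median of the 9 genes was 0.84, 0.92 and 0.29 above the knockout mean on WT replicates 1 to 3, and that of all named genes was 0.82, 0.71 and 0.03. Without WT replicate 3, limma called 6 of the 9 genes (adjusted p below 0.05): Tbx3 (-1.99), Rnf43 (-1.61), Lect2 (-1.15), Slc1a2 (-0.93) and Lgr5 (-0.93) as lower and Znrf3 (0.94) as higher. That fit also called 7636 of 12262 named genes (62.3%), so the share of members is near the background. Without WT replicates 1 and 2 it called 0 of the 9, none with an unadjusted p below 0.05, while 4.03% of named genes were lower and 2.67% higher at that p. The median difference of the 9 was then -0.29, against -0.03 for all named genes, from a single WT liver whose spread was taken to be that of the knockout livers. The part that the features of WT replicates 1 and 2, Gapdh probe span included, had in the member differences was not tested.

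**Figure D3:**
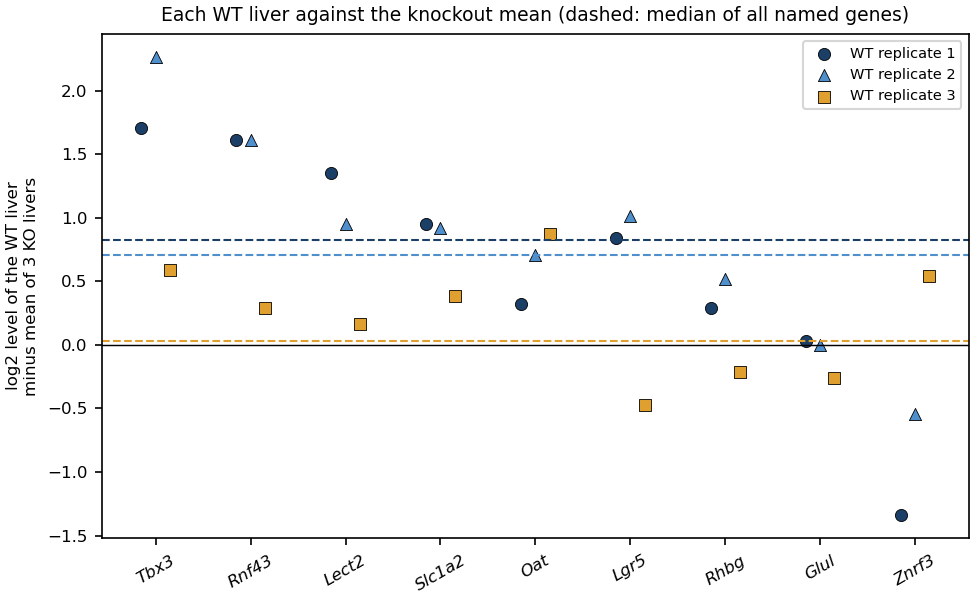
Log2 level of each WT liver minus the mean of the 3 knockout livers, for the 9 genes; dashed lines give the median of all named genes for the same liver (0.82, 0.71 and 0.03). WT replicate 3 lies below WT replicates 1 and 2 for 7 of the 9 genes, all but Oat and Znrf3.

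The upstream side of the pathway was described from lists chosen for their known roles. Of 25 genes for WNT ligands, R-spondins and their secretion, 10 passed the filter on dim probes. By an unadjusted p below 0.05 in limma 6 were lower and 1 higher in the knockout, beside 16.6% and 3.97% of all named genes, and 0 passed after adjustment over all probes. The filter could be passed through WT livers alone, as it was by the first 3 genes named here, so these counts do not stand for the whole list. Over all 25 genes, with no filter, limma gave an unadjusted p below 0.05 to 8 as lower and 8 as higher, with a median of -0.18. By the same measure 2338 of 20197 named genes were lower and 3154 higher, with a median of -0.08. Wnt2, a ligand of liver endothelial cells, was at -2.08, -2.19 and -2.45 in WT and at -3.60, -3.69 and -3.76 in the knockout, where no array was well above background. Its knockout level was lower by at least 1.35-fold, a bound that compares the WT mean with the higher of the probe's own signal and the lowest signal well above background on each knockout array (limma adjusted p = 0.228). All 3 WT livers, WT replicate 3 included, were above all knockout livers. Rspo1 was at least 1.82-fold lower and Wnt9a at least 1.24-fold lower by the same bound (limma adjusted p = 0.235 each). WT replicate 3 read -3.12 for Rspo1 and -3.30 for Wnt9a, below the lowest signal well above background on each knockout array (-2.80 to -2.48), so both bounds rest on WT replicates 1 and 2. These bounds hold for this scaling only.

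The median difference of the 10 ligand genes was -1.18, or -0.67 with those 3 at their bounds. Without WT replicates 1 and 2, which leaves 1 WT liver, it was -0.18, beside -0.03 for all named genes. Outside the naming rule, and picked for their known role after their values were seen, the central vein signals Rspo3 and Wnt9b differed by -1.48 (SE 0.60) and 0.43 (SE 0.45). Rspo3 was at 2.36 and 2.30 on WT replicates 1 and 2, and at 0.16 on WT replicate 3, among the knockout livers (0.03 to 0.20).

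Among 17 receptor genes 8 passed the filter, and 0 of them passed after adjustment (limma). Without adjustment, 2 had a p below 0.05 as lower and 1 as higher, beside 16.6% and 3.97% of all named genes. Fzd4, a Frizzled receptor, was at 2.88, 2.88 and 2.41 in WT and at 1.26, 1.44 and 1.74 in the knockout, with no overlap (knockout minus WT -1.24, SE 0.32, limma adjusted p = 0.235), and WT replicate 3 was 0.93 above the knockout mean. Lrp6, the co-receptor, differed by -1.19 (SE 0.45), with WT replicate 3 (2.68) inside the knockout range of 2.07 to 2.77. Lgr4, the R-spondin receptor related to Lgr5, differed by 3.12 (SE 1.17), but WT replicate 3 (-0.64) was within the knockout range of -0.83 to -0.36 and WT replicates 1 and 2 were not well above background. The median of the 8 was 0.68, and it was -0.01 without WT replicates 1 and 2. Its sign turned over the 5 receptor genes that were well above background on all 6 arrays, where it was -0.89 with 2 lower and 0 higher. In that setting 18.8% of named genes were lower at that p and 393 of 10378 higher, with a median of -0.51.

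WNT antagonists and the β-catenin core gave no call after adjustment either. Of 18 antagonists 7 passed the filter, with an unadjusted limma p below 0.05 for 0 as lower and 1 as higher and a median of -0.43. That median turned to 0.06 with quantile normalization, and over all 18 genes with no filter it was 0.28, with 0 lower and 6 higher. With no filter, 2338 of 20197 named genes were lower and 3154 higher at that p, with a median of -0.08. Dkk4, a secreted inhibitor of LRP receptors and a WNT target, differed by 2.31 (SE 0.68, limma adjusted p = 0.235), with 1 of 3 WT and 2 of 3 knockout livers well above background. Dkk3 (-1.11, SE 0.54) and Nkd1, an intracellular inhibitor that WNT induces (-0.94, SE 0.48), followed. For both, WT replicate 3 lay inside the knockout range: -1.80 in -1.98 to -1.45 for Dkk3 and 0.28 in 0.27 to 0.50 for Nkd1. Of 22 core genes 19 passed the filter, with 3 lower, 4 higher at that p and a median of -0.37. With the filter, the background of both lists was 16.6% of all named genes lower and 3.97% higher, with a median of -0.50. Dvl3, which relays the signal from Frizzled, differed by 3.60 (SE 1.13), with WT replicate 3 (3.68) inside the knockout range of 3.66 to 5.50. Btrc, which marks β-catenin for degradation, differed by -1.49 (SE 0.48), but was well above background in 1 of 3 knockout livers, so the size is uncertain, and the co-repressor gene Tle1 by 1.20 (SE 0.44). Ctnnb1, the β-catenin gene itself, named after its values were seen, was at 3.96, 4.04 and 3.63 in WT and at 3.33, 3.31 and 3.62 in the knockout (-0.46, SE 0.31, limma adjusted p = 0.330). Without WT replicates 1 and 2, the medians of the antagonist and core lists were 0.15 and 0.11.

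Other genes of the lobule's zones were set beside the WNT targets. Of 24 further pericentral genes past the filter (26 listed), 0 passed after adjustment in limma. By an unadjusted p below 0.05, 4 were lower and 1 higher, with a median of -0.40. By the same measure 16.6% of all named genes were lower and 3.97% higher, with a median of -0.50, so these counts are near the background. Nkd1 and Notum are counted both here and among the antagonists. Csad, which makes hypotaurine for taurine synthesis, was at 7.56, 6.998 and 5.98 in WT and at 5.08, 5.04 and 4.65 in the knockout, with no overlap (knockout minus WT -1.92, SE 0.45, limma adjusted p = 0.235), and WT replicate 3 was 1.06 above the knockout mean. Nr1i3, the nuclear receptor CAR, differed by -0.95 (SE 0.32) and Rgn, regucalcin, by -1.12 (SE 0.41). Of 20 periportal genes, 1 was lower, 2 higher at that p, with a median of -0.21, beside the shares of all named genes just given. The 3 were the immunoglobulin receptor gene Pigr (-1.37, SE 0.50), and Apoa4 (3.35, SE 1.23; 2 of 3 WT livers well above background) and Arg1 (1.69, SE 0.68). The third WT liver had Apoa4 at 1.91 and Arg1 at 7.84, within the knockout ranges of 1.76 to 2.18 and 7.82 to 8.00. Without WT replicates 1 and 2 the median was -0.18 for the pericentral list and 0.16 for the periportal list. With quantile normalization these medians were -0.01 and 0.16, and with the mean over the probes of a gene 0.08 and 0.07, so neither list has a settled direction. The difference between the lists was not tested.

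**Figure D4:**
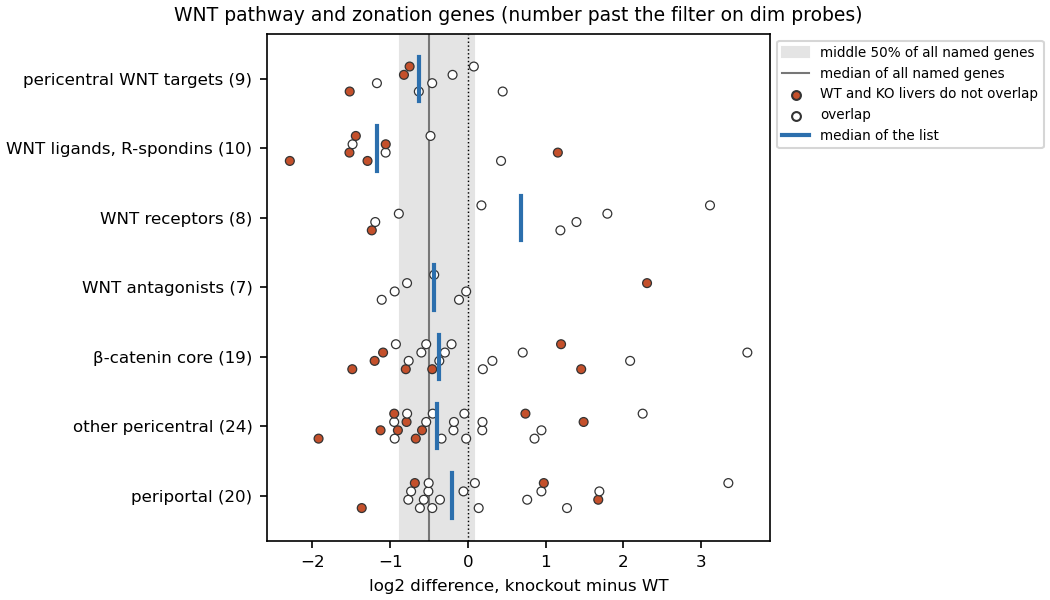
Log2 difference, knockout minus WT, of each gene past the filter on dim probes in the WNT targets and 6 further lists (number in brackets); filled points mark genes whose WT and knockout livers do not overlap, blue bars the median of a list, and grey the middle 50% of all named genes. The medians lie between -1.18 for the ligands and 0.68 for the receptors, and single genes of most lists lie on either side of 0. Nkd1 and Notum are shown in both the antagonist and the other pericentral list.

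In bulk liver, fewer cells of a type and less RNA per cell cannot be told apart. Endothelial markers, from the cells that make the ligands, were past the filter for 10 of 10 genes. An unadjusted limma p was below 0.05 for Cdh13 and Oit3 (lower) and for Kdr and Cdh5 (higher). By the same measure 16.6% of all named genes were lower and 3.97% higher. Cdh13, Oit3 and Cdh5 did not overlap between the groups, but Cdh5 was well above background in 2 of 3 WT livers. For Kdr, WT replicate 3 (4.23) lay inside the knockout range of 4.22 to 5.52. The summed endothelial signal, in multiples of the array's 75th percentile, was 111 to 149 in WT and 101 to 126 in the knockout. Stellate cell markers were past the filter for 6 of 8, and 6 of 6 differences were below 0, as were 72.4% of all named genes. Lrat (-1.42, SE 0.43) and Hgf (-1.18, SE 0.37) had an unadjusted limma p below 0.05, and Hgf was well above background in 1 of 3 knockout livers, so its size is uncertain. The summed stellate signal was 158 to 296 in WT and 144 to 150 in the knockout, so that the groups did not overlap. Gene by gene, 21.1% of all named genes lay lower in the knockout without overlap. Dcn and Ecm1 made up most of the stellate sum, and Ecm1 overlapped, with WT replicate 3 (5.66) below the knockout range of 5.79 to 6.05. The skeletal muscle sums given below did not overlap either, in the opposite direction. Macrophage markers summed to 61.7 to 137 and 64.9 to 80.3, and hepatocyte markers to 4529 to 8608 and 5486 to 7201. For cholangiocyte, lymphocyte, erythroid and skeletal muscle markers, 3 of 6, 4 of 6, 3 of 5 and 2 of 5 genes were past the filter, and their summed signals were 1.23 to 3.37, 55.6 to 89.8, 290 to 524 and 0.134 to 0.267 in WT and 2.09 to 2.87, 64.5 to 109.9, 262 to 305 and 0.273 to 2.44 in the knockout. Of the listed markers, Tf, Des, Reln, Cd68, Krt7, Epcam, Cftr, Cd8a, Cd79a, Hbb-b1, Ahsp, Myh4, Ckm and Mylpf had no probe or none past it. The part of these cell types in the differences of the WNT genes was not tested.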

How the data were processed

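Liver RNA of 3 WT and 3 Gα12 knockout mice was read with Agilent Feature Extraction 10.7.3.1, per the submitters' processing notes. The deposited scanner files give, on a linear scale, an intensity already background-subtracted by the software and raw median intensities. The authors' matrix is in log2 units; set against the scanner values it equals the log2 of that processed intensity shifted by 1 constant per array, and why the authors chose that constant stays unknown (column medians 4.41, 4.17 and 4.70 in WT, 4.32, 4.44 and 4.52 in the knockout; neither gene-centred nor a ratio). The arrays' number limits the precision.

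Controls and outlier spots (non-uniform or population) were dropped (2 to 6 non-uniform spots on WT and 90 to 152 on knockout arrays). The 75th percentile of log2 processed intensity was subtracted from each array, which left 55324 of 55681 probes with a value on all 6. Between 20885 and 28720 probes were well above background on an array. Accessions were named through RefSeq genes of GRCm38.p6 (26762 probes matched), and a gene was represented by its brightest probe past the filter. Knockout was compared with WT by lmFit and eBayes of limma 3.58.1 (R 4.3.3), two-sided. The fit was tested on simulated data in which both groups had the median SD between knockout livers (0.19). The larger spread between WT livers (median SD 0.65) was left out, so the simulation cannot show what the fit recovers in these data. Titles gave the groups and replicate numbers.

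The members and the lists were chosen with earlier results of these data known. Named were all members, Gna12, Gapdh, the 3 genes of each pathway or zonation list with the lowest p, and the 5 genes most like Glul over the arrays. The cell type markers named one by one were picked after their values were seen, by their p or, for Dcn and Ecm1, by their brightness. The planned normexp alternative used median signals, since the scanner files used here carry no mean signal.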

Additional observations from a re-analysis of the deposited data

How the results depend on the processing

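No alternative except the one without WT replicate 3 called any of the 9 genes. In that fit, limma called 13114 probes and 7636 named genes, 5 members had an unadjusted p below 0.05 as lower (55.0% of named genes did), and the median difference of the 9 members was -0.93. Leaving out each replicate in turn gave 0 to 13114 probes called, 0 to 7636 named genes called, 0 to 5 members lower at an unadjusted p below 0.05, and a median difference of the members of -0.93 to -0.56. Probes called were 1 with normexp and 2 with the filter on all 6 arrays, and named genes called were 1 and 2 with these and 7 with the mean over probes, which both averages probes and adjusts over fewer tests; none was a member. The 2 members lower at an unadjusted p below 0.05 became 1 with quantile normalization (14.2% of named genes) or with the replicate number as a block (12.5%), 4 with normexp (21.9%) or without the filter on dim probes (11.6%, Axin2 then included), and 0 (4.03%) without WT replicates 1 and 2, an alternative chosen after seeing the data. The median of the members was -0.28 with quantile normalization and -0.29 without WT replicates 1 and 2. Signs turned for Rhbg with quantile normalization (0.23) and without WT replicates 1 and 2 (0.22), for Lgr5 (0.48) and Znrf3 (-0.54) in the latter, and for Glul without WT replicate 3 (-0.017, in a range of -0.017 to 0.13 over the replicates left out). The causes of these shifts were not tested. Replicate numbers are shared between the groups, and nothing in the labels says that they pair animals. The deviations of same-numbered livers from their group means correlated at -0.13, 0.01 and -0.04. With 3 livers per group these values cannot settle whether the livers were paired. The replicate block called 0 probes. Dim signal limits Axin2, Znrf3 and the ligand genes.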
